A study of Mus musculus with 6 samples.

Results

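The genes described here drive or brake the passage of a cell from G1 into S phase: the D-type cyclins *Ccnd1*, *Ccnd2* and *Ccnd3*, the kinases *Cdk4* and *Cdk6*, the retinoblastoma gene *Rb1*, and the CDK inhibitors *Cdkn1a*, *Cdkn1b*, *Cdkn1c* and *Cdkn2c*. They were picked by gene symbol, and all 10 were found among the 16640 genes of the deposited table. The study activated the endogenous *Thada* gene in MIN6 cells, a mouse β-cell line that came from an insulinoma, and sequenced RNA from control and *Thada*-activated cells in 3 libraries per condition, 6 in all. The comparison of the conditions asks which genes differ between cells with a higher level of *Thada* and control cells. Library totals lay between 17166511 and 17727004 estimated counts.

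D-type cyclins bind CDK4 or CDK6, and the active kinase phosphorylates the RB protein, which then releases E2F transcription factors that switch on genes for DNA synthesis. INK4 inhibitors such as p18, the product of *Cdkn2c*, bind CDK4 and CDK6 alone, whereas the CIP and KIP inhibitors p21, p27 and p57 act on cyclin-bound kinases. In mouse β cells, CDK4 and cyclin D2 are known to be needed for growth of the β-cell mass after birth, and MIN6 cells carry the SV40 large T antigen, which binds RB proteins and p53.

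Both conditions were MIN6 cells infected with lentiviruses and grown in high-glucose DMEM. The *Thada*-activated line, described as stable, received dCas9-VP64 under puromycin selection and then an sgRNA-MS2-P65-HSF1 construct aimed at the *Thada* promoter under G418 selection. Control cells carried lentiviruses for dCas9 and for a non-targeting sgRNA. No further line per condition is described, so an effect of *Thada* cannot be told apart from a difference between the selected lines. *Thada* itself was counted at 28.0, 28.9 and 17.2 CPM (counts scaled to the TMM-normalized library size) across control libraries and 57.3, 56.2 and 49.1 CPM across *Thada*-activated libraries, each time for replicates 1, 2 and 3 in order, so the conditions did not overlap. The labels do not say that the libraries came from separate cultures, and the study states independent repeats of its in vitro work in general, without naming these libraries. P-values measure the spread between these libraries, which may be technical.

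The β-cell label fitted 11 of the 12 β-cell markers, whose summed level ranged from 98100 to 129800 CPM with *Ins2* as the most abundant. The exception was *Slc2a2*, the glucose transporter of rodent β cells, at 1 to 9 counts. Acinar markers (2 of 5 in the table) were at 0 to 1 count. Of the 3 endothelial markers, *Cdh5* and *Kdr* were at 0 to 1 count and *Pecam1* at 6 to 22. Replicate 3 of either condition was set apart from the other libraries by a first principal component that held 80.1% of the variance. Of the β-cell markers, *Ins1* and *Ins2* were above and 8 of 12 (*Pdx1*, *Mafa*, *Nkx6-1*, *Nkx2-2*, *Neurod1*, *Iapp*, *Slc30a8* and *Ucn3*) below the other libraries in both replicate 3 libraries, as 71.8% of all tested genes lay on 1 side of them. *Ins2* was at 64400, 56401 and 103000 CPM across control libraries and 64264, 62872 and 81877 CPM across *Thada*-activated libraries (replicates 1, 2 and 3). The δ-cell list (*Sst*, with *Hhex* at 0 to 1 count) summed to 154, 129 and 68.0 CPM in control and to 143, 131 and 59.2 CPM across the *Thada*-activated ones, again by replicate number. The α-cell list (3 of 4 in the table, nearly all of it *Ttr*) summed to 1309, 1209 and 663 CPM and to 1289, 1281 and 827 CPM in the same order, while *Irx2* of that list was higher in both replicate 3 libraries. The PP-cell marker *Ppy* was higher in replicate 3, at 19.5, 17.8 and 27.5 CPM and then 22.6, 21.6 and 39.8 CPM. *Col1a1*, 1 of 3 fibroblast markers in the table, and *Pecam1* were also higher in both replicate 3 libraries, *Col1a2* and *Col3a1* overlapped, and *Cd68* of immune cells was lower. Results that contrast replicate 3 with the others therefore move with these markers, some of which rise and some fall within a list, and the part of these markers in them was not tested. In such bulk RNA, fewer cells with a transcript and less transcript per cell cannot be told apart.

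The line held high levels of *Cdk4* and of 3 inhibitors, intermediate levels of *Ccnd3*, *Rb1* and *Ccnd2*, and almost no *Ccnd1* or *Cdk6*. Levels of different genes are compared in FPKM, which divides reads by gene length. *Cdkn2c* came first at 222 ± 47.1 FPKM (SD, n = 6), followed by *Cdk4* at 134 ± 23.9 FPKM, *Cdkn1b* at 116 ± 15.0 FPKM and *Cdkn1a* at 108 ± 17.4 FPKM. The ranges of *Cdk4*, *Cdkn1b* and *Cdkn1a* over the 6 libraries overlapped, so their order was not resolved. *Ccnd3* (33.6 ± 2.60 FPKM), *Rb1* (23.2 ± 3.42 FPKM) and *Ccnd2* (11.7 ± 2.37 FPKM) followed in separate ranges. *Cdkn2c* ranked 295th of 16640 genes by mean FPKM, *Cdk4* 500th and *Ccnd2* 6202nd.

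**Figure D1:**
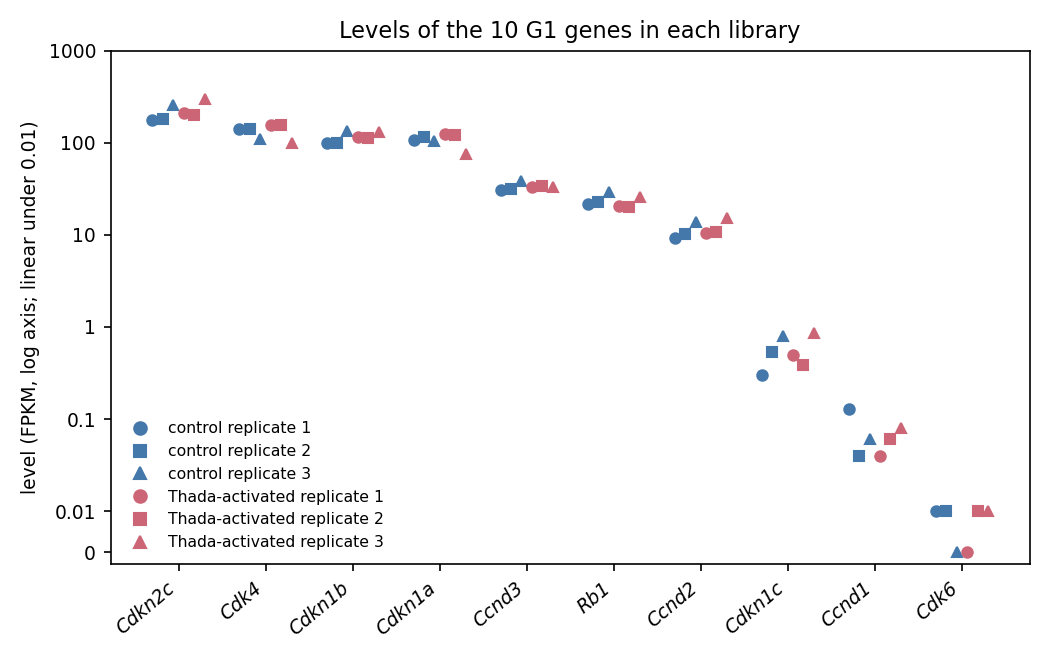
Level of each of the 10 genes in FPKM in each of the 6 libraries, on a log axis that turns linear under 0.01. Colours mark conditions and shapes mark replicate numbers; *Cdkn2c* lies highest (178 to 299 FPKM), *Ccnd1* and *Cdk6* stay under 0.2 FPKM, and the ranges of *Cdk4*, *Cdkn1b* and *Cdkn1a* overlap.

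Within the D-type cyclins, *Ccnd3* supplied most of the summed FPKM. Its share was 76.6%, 75.1% and 73.3% in control replicates 1, 2 and 3 and 76.1%, 75.9% and 68.4% in *Thada*-activated replicates 1, 2 and 3. *Ccnd2* made up nearly all of the rest, at 23.1%, 24.8% and 26.6% in control and 23.8%, 24.0% and 31.5% in *Thada*-activated libraries. The excess of *Ccnd3* depends on the division by length, since without it *Ccnd2*, a gene of longer transcripts, took 51.8% of the summed D-type cyclin CPM. *Ccnd1* was estimated at 2.58 to 7.88 counts and 0.04 to 0.13 FPKM, close to the floor of 3 counts. Cyclin D1 is the D-type cyclin of many other cell types, and here the share of *Ccnd1* was between 0.0917% and 0.321%.

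*Cdk4* took at least 99.99% of the FPKM of the *Cdk4* and *Cdk6* pair in every library. *Cdk6* had 1 count in 5 libraries and 0 in control replicate 3, against 2079 to 3276 counts for *Cdk4*. The floor was set at 3 counts, worth 0.169 to 0.175 CPM depending on the library, so *Cdk6* was not detectable at this depth. Among the 4 inhibitors, *Cdkn2c* held 46.4%, 45.9% and 51.8% of the summed FPKM in control replicates 1, 2 and 3 and 47.0%, 46.1% and 59.0% in *Thada*-activated replicates 1, 2 and 3. *Cdkn1a* held 27.7%, 28.7% and 20.8%, and then 27.4%, 27.7% and 15.0%, in the same order of libraries. *Cdkn1b* stayed between 25.2% and 27.2%, and *Cdkn1c* between 0.0781% and 0.17%. These sums leave out the other INK4 genes, *Cdkn2a* (mean 76.43 FPKM), *Cdkn2d* (74.55 FPKM) and *Cdkn2b* (15.3 FPKM), which are not members. None of the 8 shares separated the conditions (exact permutation test, two-sided, p from 0.5 to 1, where 3 libraries against 3 allow no p below 0.1).

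*Thada* activation moved no member past the threshold. For testing, 8 of the 10 genes passed the filter on low counts, and *Ccnd1* and *Cdk6* did not. A gene was called at an adjusted p under 0.05 and a fold change over 1.5 (edgeR's quasi-likelihood test, Benjamini-Hochberg over 12516 genes). Of the 8 tested members, 0 were called, against 0% of all tested genes without a block and 0.152% (19 genes) with the replicate number as a block. At an unadjusted p under 0.05 in edgeR there were 101 genes but no member without the block, and 1302 genes and 1 member (*Cdkn2c*) with it. Without the block, DESeq2 called 5 genes, none a member. *Thada* itself, at a fold change of 2.19, was not called without the block either (edgeR adjusted p = 1), and was called with it (edgeR adjusted p = 0.000410), so the unblocked test missed the gene that was activated. All 8 members had control and *Thada*-activated libraries that overlapped, while 5.4% of tested genes had groups that did not. The members' log2 fold changes (*Thada*-activated over control) ran from -0.13 to 0.18 with a median of 0.08, and the median over all genes was 0.00. Their median absolute log2 fold change of 0.10 stood beside 0.08 for all genes.

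Replicate 3 differed from replicates 1 and 2 at 7 of the 8 tested members. With the condition kept in the model, 5 members were higher in replicate 3 (*Ccnd2*, *Rb1*, *Cdkn1b*, *Cdkn1c* and *Cdkn2c*) and 2 were lower (*Cdk4* and *Cdkn1a*) at an adjusted p under 0.05 in edgeR's quasi-likelihood test. Across all tested genes, 34.3% were higher and 34.4% lower by the same rule, so passing the test was common in the whole transcriptome. Both replicate 3 libraries lay on the same side of the other 4 for 7 of 8 members and for 71.8% of tested genes. With a fold over 1.5 as well, *Cdkn1c* was the 1 member called, against 31.1% of tested genes. The members' median absolute log2 difference was 0.38, the same as for all genes. The split follows the replicate numbers of the labels but had been noticed in these libraries earlier, and its p-values are a description. On log2(FPKM + 1) and log2(FPKM + 0.1), limma kept the sign for all 8 members and passed the same 7. On log2(TPM + 1), a scaling added after the data were seen because the FPKM columns have different sums, the median of all genes lay at -0.15. With that common shift left in, *Ccnd3* changed sign (-0.05) and *Rb1* (0.17) and *Cdkn1b* (0.13) no longer passed limma's test.

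**Figure D2:**
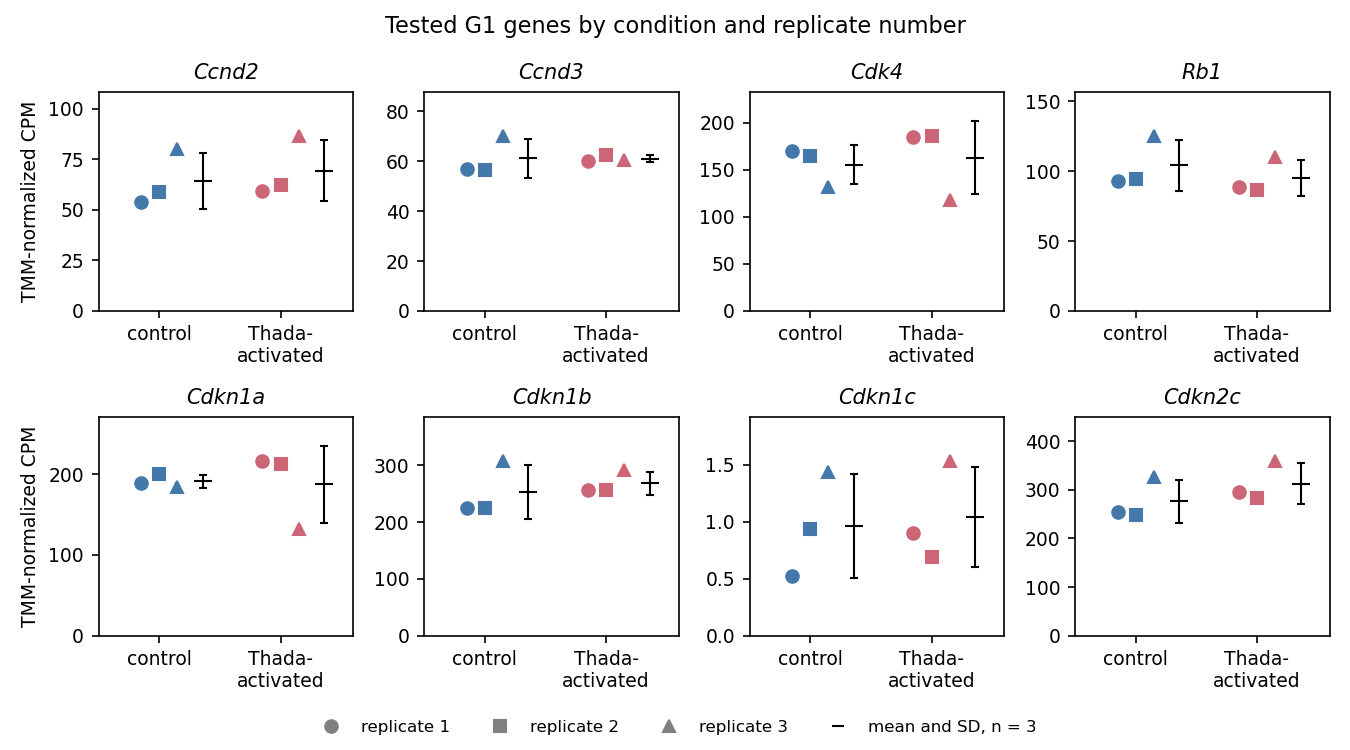
TMM-normalized CPM of the 8 tested genes in each library, with conditions on the horizontal axis, shapes for replicate numbers, and bars for the mean and SD of 3 libraries. Control and *Thada*-activated libraries overlap in each panel, and except for *Ccnd3* both replicate 3 triangles lie above all other points or, for *Cdk4* and *Cdkn1a*, below them.

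*Ccnd2* (chr6:127125162-127152193, minus strand, GRCm38), the gene of cyclin D2, was at 54.2, 58.6 and 80.3 CPM across control libraries and 59.4, 62.3 and 86.7 CPM across *Thada*-activated libraries (replicates 1, 2 and 3). Both replicate 3 libraries were the highest. The fold change between conditions was 1.08 (95% interval 0.747 to 1.56), and with the block 1.08 (0.981 to 1.19). *Ccnd2* was higher in the *Thada*-activated library of each replicate number, by 0.13, 0.09 and 0.11 on the log2 scale for replicates 1, 2 and 3. This did not pass the test with the block (edgeR adjusted p = 0.586). Replicate 3 exceeded the others 1.42-fold, a log2 difference of 0.51 (standard error 0.06, edgeR adjusted p = 3.61e-06), with the same 0.51 within control and within *Thada*-activated libraries. *Ccnd3* (chr17:47505051-47599691, plus strand), the gene of cyclin D3, behaved otherwise. It was at 57.1, 56.4 and 70.2 CPM across control libraries and 60.1, 62.7 and 60.4 CPM across *Thada*-activated libraries (replicates 1, 2 and 3). Only control replicate 3 stood apart. The fold change between conditions was 0.997 (0.816 to 1.22) without and 1.00 (0.889 to 1.13) with the block. Its log2 difference of replicate 3 from the others was 0.15 (standard error 0.07, edgeR adjusted p = 0.0957), with 0.31 among control and -0.02 among *Thada*-activated libraries.

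*Cdk4* (chr10:127063534-127067920, plus strand) was at 169, 165 and 132 CPM across control libraries and 184, 186 and 118 CPM across *Thada*-activated libraries (replicates 1, 2 and 3). Both replicate 3 libraries lay below all the others. *Cdk4* was 1.41-fold lower there (log2 difference -0.49, standard error 0.07, edgeR adjusted p = 1.50e-05), by -0.34 in control and -0.65 in *Thada*-activated libraries. The fold change between conditions was 1.05 (95% interval 0.732 to 1.5), and 1.03 (0.928 to 1.15) with the block. The substrate gene *Rb1* (chr14:73183673-73325822, minus strand) was at 92.8, 94.4 and 125 CPM across control libraries and 88.5, 86.6 and 110 CPM across *Thada*-activated libraries (replicates 1, 2 and 3). *Rb1* was thus highest in replicate 3, with a log2 difference of 0.38 (standard error 0.06, edgeR adjusted p = 2.89e-05). *Rb1* was lower in the *Thada*-activated library of each replicate number, by -0.07, -0.13 and -0.18 on the log2 scale for replicates 1, 2 and 3. This did not pass the test (fold change 0.913, interval 0.686 to 1.22, and with the block 0.916, interval 0.834 to 1.01, edgeR adjusted p = 0.514).

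*Cdkn1a* (chr17:29090976-29100727, plus strand), which encodes p21, a target of p53, was at 189, 200 and 184 CPM across control libraries and 217, 212 and 132 CPM across *Thada*-activated libraries (replicates 1, 2 and 3). The replicate 3 library of *Thada*-activated cells was the lowest of the 6, while control replicate 3 lay close to the other controls. The log2 difference of replicate 3 was -0.37 (standard error 0.12, edgeR adjusted p = 0.0264), from -0.08 in control and -0.69 in *Thada*-activated libraries. Without *Thada*-activated replicate 3 it was -0.08 (edgeR adjusted p = 0.296), and in DESeq2 on all libraries the adjusted p was 0.0586. The fold change between conditions was 0.979 (95% interval 0.692 to 1.39), and 0.959 (0.807 to 1.14) with the block. Its sign turned without replicate 3, where the log2 fold change was 0.14 (edgeR adjusted p = 0.123).

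*Cdkn1b* (chr6:134920401-134925513, plus strand), the gene of p27, was at 225, 225 and 308 CPM across control libraries and 257, 257 and 292 CPM across *Thada*-activated libraries (replicates 1, 2 and 3). Replicate 3 held the highest value of each condition, and the log2 difference was 0.32 (standard error 0.06, edgeR adjusted p = 0.000343), by 0.45 in control and 0.18 in *Thada*-activated libraries. Without control replicate 3 it was 0.18 (edgeR adjusted p = 0.00640). The fold change between conditions was 1.06 (95% interval 0.805 to 1.4), and 1.07 (0.965 to 1.19) with the block. *Cdkn1c* (chr7:143458339-143461050, minus strand), the imprinted gene of p57, was scarce, at 9, 16 and 25 counts in control and 16, 12 and 27 counts in *Thada*-activated replicates 1, 2 and 3. Both replicate 3 libraries were again the highest, 1.94-fold above the others (log2 difference 0.95, standard error 0.30, edgeR adjusted p = 0.0117). The difference missed the threshold in DESeq2 (adjusted p = 0.0792) and in edgeR without control replicate 3 (adjusted p = 0.0524) or without *Thada*-activated replicate 3 (adjusted p = 0.0506). The condition fold change of 1.08 had a wide interval from 0.470 to 2.48.

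*Cdkn2c* (chr4:109660876-109667189, minus strand) was at 253, 248 and 327 CPM across control libraries and 295, 283 and 360 CPM across *Thada*-activated libraries (replicates 1, 2 and 3). The *Thada*-activated library exceeded the control library of the same number in 3 of 3 replicates, by 0.22, 0.19 and 0.14 on the log2 scale, but the libraries of the conditions overlapped. Its condition fold change was 1.13 (95% interval 0.855 to 1.5, edgeR adjusted p = 1). With the block it was 1.14 (interval 1.04 to 1.24), where the unadjusted p was 0.00880 and the edgeR adjusted p was 0.297. Within replicates 1 and 2 only, *Cdkn2c* (fold change 1.15, edgeR adjusted p = 0.00741) and *Cdkn1b* (fold change 1.14, edgeR adjusted p = 0.0165) passed the test without reaching a fold of 1.5. These were 2 of 8 members, against 3.41% of the genes tested there. In the blocked fit of the same libraries *Cdkn1b* missed the threshold (edgeR adjusted p = 0.0574). Replicate 3 exceeded the others in *Cdkn2c* 1.27-fold (log2 difference 0.35, standard error 0.05, edgeR adjusted p = 3.39e-05), by 0.38 in control and 0.32 in *Thada*-activated libraries.

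An interaction term compared the condition effect in replicate 3, where it rests on 1 library per condition, with that in replicates 1 and 2, which alone give the spread. Its p-values are therefore a description of single libraries. *Cdkn1a*, *Ccnd3*, *Cdk4* and *Cdkn1b*, 4 of 8 members, passed in edgeR (adjusted p under 0.05), against 6.96% of tested genes. *Cdkn1a* was the 1 member that passed in DESeq2, against 2.16% of the genes for which it gave an adjusted p, and *Ccnd3*, *Cdk4* and *Cdkn1b* did not pass there. The *Thada*-activated library of replicate 3 held less *Cdkn1a*, *Ccnd3*, *Cdk4* and *Cdkn1b* than the control library of that number, and in replicates 1 and 2 the *Thada*-activated library held more.

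*Cdkn2c* and *Cdk4* moved apart in replicate 3. *Cdkn1a* did not follow *Cdkn2c*, and its lower level in replicate 3 rests on the *Thada*-activated library. The ratio of *Cdkn2c* to *Cdk4* in FPKM was 1.26, 1.31 and 2.35 in control replicates 1, 2 and 3 and 1.36, 1.29 and 3.0 in *Thada*-activated replicates 1, 2 and 3. The 4 inhibitors summed to 2.72, 2.85 and 4.54 times *Cdk4* in control and to 2.89, 2.79 and 5.08 times *Cdk4* in *Thada*-activated libraries. Both ratios were chosen after the values were seen and were not tested. Being taken within a library, they do not depend on its scaling, but in FPKM they carry the length shift of *Cdkn2c* given next.

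Of the 7 members with at least 100 counts in every library, *Cdkn2c* was the 1 with a shorter implied length in replicate 3. The effective length implied by the deposited values (CPM of the unscaled library total divided by FPKM, on a scale of bases) was 1406, 1351 and 1246 bases in control replicates 1, 2 and 3 and 1392, 1406 and 1231 bases in *Thada*-activated replicates 1, 2 and 3. The mean of both replicate 3 libraries was lower by -150 bases. For 856 genes with a single transcript in the table, that mean was longer by a median of 12.8 bases, not split by library. Of 10076 genes with at least 100 counts in every library, 1.29% had a lower log2 ratio of replicate 3 to the others than *Cdkn2c* (-0.165). Ratios for *Ccnd2*, *Ccnd3*, *Cdk4*, *Rb1*, *Cdkn1a* and *Cdkn1b* lay between 0.003 and 0.023. In these genes only *Thada*-activated replicate 3 was longer, and control replicate 3 lay within the range of control replicates 1 and 2. Because FPKM divides by this length, *Cdkn2c* differed more on the FPKM scale (0.52 on log2(FPKM + 1)) than in counts (0.35).

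**Figure D3:**
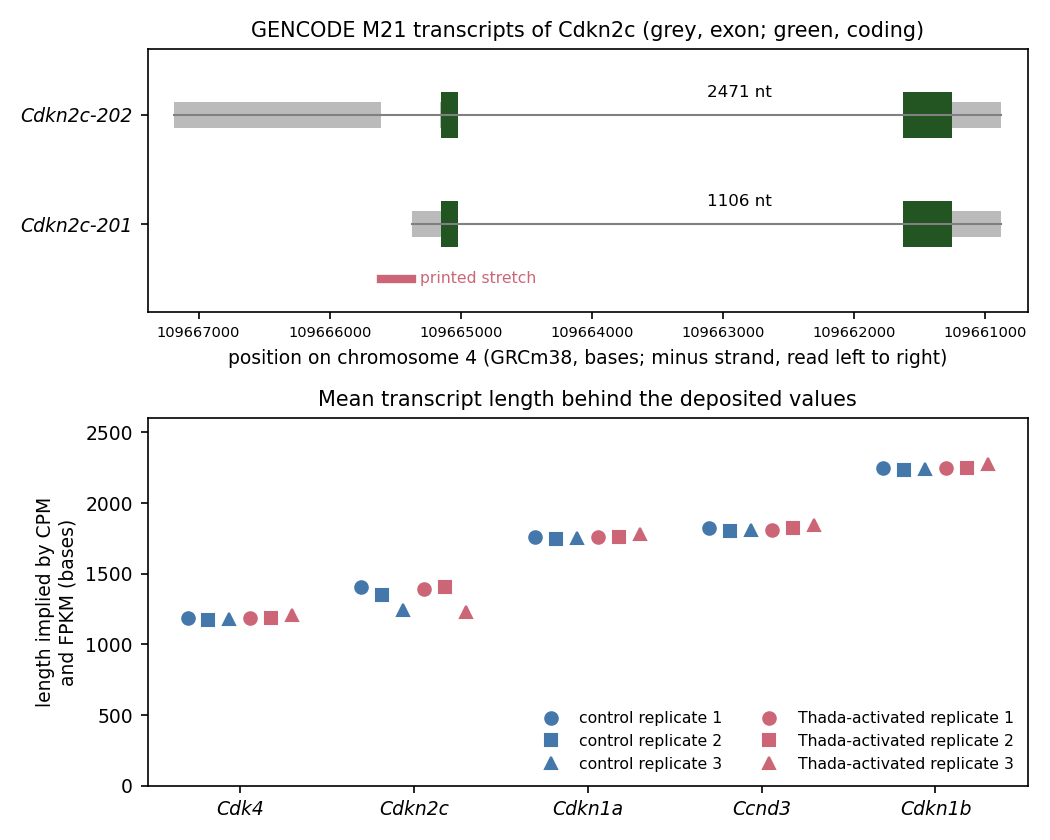
Upper panel, exons of the 2 GENCODE transcripts of *Cdkn2c* by position on chromosome 4 (2471 and 1106 nt, both with the same coding exons); lower panel, effective length in bases implied by CPM and FPKM for 5 members in each library. The replicate 3 triangles of *Cdkn2c* lie at 1246 and 1231 bases, below the 1351 to 1406 bases of its other libraries, and those of the other genes do not fall below their neighbours in this way.

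GENCODE M21 lists 2 *Cdkn2c* transcripts of 2471 and 1106 nt that share a coding sequence of 504 bases and differ in their 5′ ends. RefSeq (GRCm38.p6) also places starts at 109666756 and 109665372, 1384 bases apart. The annotation behind the deposited values differs from these models, as the table counts 4 transcripts for *Cdkn2c* and extends the gene to 109671594. It holds no value per transcript, and the use of either start was not tested. Promoter stretches were available for 6 of the 10 members, and 2 are printed because *Cdkn2c* showed the shift in length and *Cdk4* moved the other way from most members. Both strands were searched for the E-box CACGTG and the GC box GGGCGG in the 250 bases before each start, and matches are in capitals. The first stretch (chr4:109665373-109665609, minus strand, 237 bases) lies upstream of the shorter *Cdkn2c* transcript and in an intron of the longer transcript. The second (chr10:127063285-127063534, plus strand) lies upstream of *Cdk4*, with its last base in the first exon of the GENCODE model.
Cdkn2c: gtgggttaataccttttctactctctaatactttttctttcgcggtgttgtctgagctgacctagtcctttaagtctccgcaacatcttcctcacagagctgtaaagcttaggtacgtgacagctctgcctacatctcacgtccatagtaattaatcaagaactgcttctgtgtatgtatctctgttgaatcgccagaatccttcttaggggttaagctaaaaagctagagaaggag
Cdk4: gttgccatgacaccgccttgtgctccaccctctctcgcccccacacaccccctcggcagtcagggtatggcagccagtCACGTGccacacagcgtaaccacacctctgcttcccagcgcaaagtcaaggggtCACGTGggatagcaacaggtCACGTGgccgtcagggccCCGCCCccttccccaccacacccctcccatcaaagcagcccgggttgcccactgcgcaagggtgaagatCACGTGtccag
The *Cdk4* stretch held 4 E-boxes and 1 GC box, and the *Cdkn2c* stretch neither. Among 32851 promoters of the same length, 6.02% held an E-box, 32.7% held a GC box, and 7 promoters held at least 4 E-boxes. Upstream of the earlier *Cdkn2c* start there were 3 GC boxes and no E-box. Neither motif says which factor binds there.

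Other genes of the same circuit were counted in 10 lists (144 genes in the table beside the members, 139 of them tested). Under *Thada* activation 0 of the 139 passed the test with or without the block (and 0 at an unadjusted p under 0.05 without it), and the lowest blocked adjusted p in edgeR was 0.209. In replicate 3, the 3 INK4 genes beside *Cdkn2c* were higher (median log2 difference 0.47, beside 0.00 for all genes, of which 34.3% were higher). *Cdkn2a*, whose counts join the transcripts of p16 and ARF, was at 47.5, 42.2 and 70.5 CPM across control libraries and 52.1, 52.2 and 78.9 CPM across *Thada*-activated libraries (replicates 1, 2 and 3), with a log2 difference of 0.62 (edgeR adjusted p = 8.89e-07). The list of pocket proteins beside *Rb1*, E2F and DP factors also held *Lin9*, *Lin37*, *Lin52* and *Lin54*. Of its 16 genes, 5 were higher, *Lin52* and *Lin54* among them, and 6 lower, near the 34.3% and 34.4% of all tested genes. It was led by *E2f5* (log2 difference 0.77) and *E2f8* (-0.73).

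Of the E-type and A-type cyclins and their kinases, 3 of 5 tested genes were lower in replicate 3 and none passed as higher, where 34.3% of all tested genes were higher and 34.4% lower. The E-type cyclin gene *Ccne1* was at 85.8, 90.98 and 54.8 CPM across control libraries and 90.9, 91.1 and 49.2 CPM across *Thada*-activated libraries (replicates 1, 2 and 3; log2 difference -0.79). *Ccne2* (-0.70) and *Ccna2* (-0.59) were lower as well, and so was *Cdc25a* (-0.37), 1 of 3 CDC25 phosphatase genes on that list. Against the same 34.4%, E2F targets of S phase were lower in 23 of 27 genes with none higher (median -0.70, led by *Tyms*, *Mcm5*, *Pola1*, *Ccne1* and *Rrm2*), and mitosis markers were lower in 13 of 17 and higher in 1 (median -0.52, led by *Cenpf*, *Mki67*, *Ccnb1*, *Cenpe* and *Plk1*). *Cdk4* therefore lay on the same side as these lists in replicate 3, and *Ccnd2* and *Rb1* on the other.

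Genes that act on the members went both ways, as all tested genes did (34.3% higher and 34.4% lower). Of the CDK-activating kinase and other CDK partners, 3 of 11 were higher and 5 lower, with *Mnat1*, the assembly factor of that kinase, at 1.13, *Ccni* at 0.85, *Ccng2* at 0.68 and *Ccnc* at -0.89 on the log2 scale. Of the genes for turnover of D-type cyclins and KIP proteins, 7 of 15 were higher and 6 lower. *Cks1b*, which helps SKP2 to bind p27, was at 0.67, its paralogue *Cks2* at 0.78, *Fbxo31*, a receptor for cyclin D1 degradation, at 0.65, and *Usp2*, a deubiquitinase, at 0.69. Among regulators of D-type cyclin and KIP genes 9 of 23 were higher and 8 lower, led by *Ezh2* (-1.16), *Foxm1* (-0.997), *Egr1* (-1.16), *Klf6* (0.74) and *Smad3* (1.84). *Ezh2* and *Foxm1*, a methyltransferase and a transcription factor of dividing cells, were thus lower together with *Cdk4*. *Myc* (1.20) and *Mycn* (0.69) of the same list went the other way from *Cdk4*, and *Prlr* (-1.84) was lower.

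Beside *Cdkn1a*, the list of p53 and its targets had 6 of 18 tested genes higher and 6 lower in replicate 3 (median -0.19), near the 34.3% and 34.4% of all tested genes. *Trp53*, the gene of p53, was lower as *Cdkn1a* was (log2 difference -0.46, edgeR adjusted p = 0.00289). Its interaction term of -0.59 rests on 1 library per condition in replicate 3. *Gadd45a*, a stress-induced gene, was at 26.2, 26.5 and 103 CPM across control libraries and 32.9, 29.6 and 114 CPM across *Thada*-activated libraries (replicates 1, 2 and 3; log2 difference 1.91). *Sesn1* (0.84), *Bbc3* (0.85) and *Trp53inp1* (0.60) were higher too, and *Btg2* (-0.90) was lower. Around *Cdkn1c*, 4 imprinted-region neighbours were tested, of which 2 were higher and 1 lower (*Tssc4*, -1.31).

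Genes most like a member were sought among 9736 genes with a mean of at least 10 CPM, by the root mean square difference in gene-centred log2 CPM over the 6 libraries. For *Cdkn2c* these were *Rassf8*, *Exosc5*, *Atp5g2*, *Efhd2* and *Coa3* (0.0274 to 0.0388), and *Cdkn1b* was the nearest member, in place 77. For *Cdk4* they were *Cdc20*, *Fiz1*, *Sapcd2*, *Rbm42* and *Cog8* (0.0261 to 0.033), with *Cdkn1a* as the nearest member in place 863. For *Ccnd3* they were *Irak1bp1*, *Tmem101*, *Ctdnep1*, *Rps2* and *Brox* (0.0214 to 0.0327), and *Cdkn1b* was the nearest member in place 1033.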

How the data were processed

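RNA of the 6 libraries was sequenced on the BGISEQ-500 platform. The submitters' processing notes name Bowtie2, RSEM, DESeq2 and GRCm38, without versions. The authors deposited estimated counts for each gene and library, which were rounded here to whole numbers. The authors also deposited FPKM and TPM, which divide by gene length, and TPM by the library sum as well. The table also holds the authors' own fold changes and p-values, which were not used. Conditions and replicate numbers came from the sample labels.

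Counts were filtered by filterByExpr, normalized by TMM and fitted in edgeR 4.0.16 (robust quasi-likelihood) with R 4.3.3. Replicate 3 and its interaction with the condition were fitted in the same way. DESeq2 1.42.0, limma 3.58.1 on log2 FPKM (pseudocounts 1 and 0.1) and on log2 TPM, other filters and library sizes, and leaving out libraries were alternatives. Standard errors were derived from the F statistic. The code was tested on simulated data. The simulated spread was smaller than that of the unblocked condition fit, so the simulation does not show what that fit could detect here.

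Deviations from the condition means correlated across genes at 0.667, 0.671 and 0.869 between conditions for replicates 1, 2 and 3. Control replicate 1 with *Thada*-activated replicate 2 (0.705) and control replicate 2 with *Thada*-activated replicate 1 (0.726) correlated more than the numbers 1 and 2 did, so the values tie the conditions by number for replicate 3 only. No pair among all 6 libraries had identical counts (chi-square per degree of freedom from 1.81 to 127). The lowest value was that of *Thada*-activated replicates 1 and 2, beside 4.3 for control replicates 1 and 2. This cannot tell whether libraries share RNA or a culture. Sums over cell type markers and implied lengths use CPM of the unscaled library total.

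The members and lists were chosen with earlier results of these data known. Named genes were the members, *Thada*, up to 5 called genes per list by smallest p (otherwise the most changed and the most abundant gene), and the 5 genes most like *Ccnd3*, *Cdkn2c* and *Cdk4*. Cell type markers, *Trp53*, *Cdc25a*, *Cdkn2b*, *Cdkn2d*, *Cdk7*, *Myc*, *Mycn*, *Prlr*, *Hnf4a*, *Kmt2a*, *Lin9*, *Lin37*, *Lin52* and *Lin54* were named outside this rule. Strands were taken from GENCODE M21. The counts are not stated to use strand, so antisense reads cannot be told apart. Floors and intervals cover the spread between libraries or counting error only.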

Additional observations from a re-analysis of the deposited data

Results flagged for a closer look

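For *Cdkn1a*, *Ccnd3*, *Cdk4*, *Cdkn1b* and *Thada*, the difference between conditions in replicate 3 stood apart from that in replicates 1 and 2. The interaction term in edgeR's quasi-likelihood test measures this from 1 library per condition in replicate 3. It cannot show that the effect of *Thada* activation differed. For *Cdkn1a* the log2 difference between *Thada*-activated and control libraries was 0.20, 0.08 and -0.48 in replicates 1, 2 and 3. Its interaction term was -0.62 (standard error 0.09, edgeR adjusted p = 1.67e-06), and it was the 1 member that passed in DESeq2 too (adjusted p = 0.000121). The terms of *Ccnd3* (-0.33, edgeR adjusted p = 0.0470), *Cdk4* (-0.30, edgeR adjusted p = 0.0316) and *Cdkn1b* (-0.27, edgeR adjusted p = 0.0436) were negative as well, and their DESeq2 adjusted p was 0.4445, 0.246 and 0.213. *Thada* had a term of 0.52 (edgeR adjusted p = 0.00935), from log2 differences of 1.03, 0.96 and 1.51 in replicates 1, 2 and 3, and DESeq2 gave it no adjusted p (unadjusted p = 0.017). In this model replicate 3 has 1 library per condition, and the spread comes from replicates 1 and 2 alone.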

How the results depend on the processing

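Of the values recomputed under other settings, 360 kept their direction and their side of the threshold or moved by less than their spread. Of the rest, 28 turned sign, 11 no longer passed, 4 newly passed and 19 moved further. The replicate block called 19 genes in place of 0 between conditions, and the log2 fold change of *Ccnd3* turned from -0.0048 to 0.00087, but the block changed no member's call. Other fits called 5 genes (DESeq2), 20 (DESeq2 with the block), 42 (replicate 3 as a term) and 68 (replicates 1 and 2 only). Leaving replicates 1, 2 or 3 out of the blocked fit gave 43, 18 and 70. *Ccnd3* also turned sign with limma on log2(FPKM + 1) (0.013) and log2(FPKM + 0.1) (0.013), on log2(TPM + 1) (0.055), in the blocked DESeq2 fit (0.0012) and with replicate 3 as a term (0.00059). In replicates 1 and 2 only, 2 members passed the test, *Cdkn1b* (0.19) and *Cdkn2c* (0.21), and *Ccnd3* (0.11) and *Cdkn1a* (0.14) turned sign. The blocked fit without replicate 3 gave 1 member, *Cdkn2c* (0.21), and the same turns of *Ccnd3* (0.11) and *Cdkn1a* (0.14). The blocked fits without replicate 1 turned *Cdkn1c* (-0.11) and without replicate 2 *Cdk4* (-0.015).

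With each library left out in turn, condition log2 fold changes ranged from -0.081 to 0.30 for *Ccnd2*, -0.060 to 0.11 for *Ccnd3*, -0.039 to 0.25 for *Cdk4*, -0.25 to 0.023 for *Rb1*, -0.15 to 0.17 for *Cdkn1a*, 0.0088 to 0.25 for *Cdkn1b*, -0.28 to 0.51 for *Cdkn1c* and 0.065 to 0.32 for *Cdkn2c*. Replicate 3 differences then ranged from -0.0228 (without control replicate 3) to 0.31 (without *Thada*-activated replicate 3, edgeR adjusted p = 0.000269) for *Ccnd3*, from -0.69 to -0.076 for *Cdkn1a*, from 0.18 (without control replicate 3) to 0.45 for *Cdkn1b* and from 0.80 to 1.11 for *Cdkn1c*. *Cdkn1c* missed the threshold without control replicate 3 (0.94) and without *Thada*-activated replicate 3 (0.97).

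Without a fold threshold, 8592 genes passed for replicate 3. *Cdkn1a* missed the threshold there without a filter (-0.39) and in DESeq2 (-0.37), as did *Cdkn1c* in DESeq2 (0.96), and *Rb1* (0.17) and *Cdkn1b* (0.13) on log2(TPM + 1), where *Ccnd3* turned sign (-0.046). Untested values within a condition were 0.31 in control and -0.0228 in *Thada*-activated libraries for *Ccnd3*, and -0.076 and -0.69 for *Cdkn1a*. The interaction called 42 genes in DESeq2 in place of 227, and the near-zero term of *Ccnd2* became 5.4e-06 with DESeq2 size factors. Without division by length, the mean shares were 51.8% for *Ccnd2*, 99.97% for *Cdk4* and 39.4% for *Cdkn2c*, in place of 25.6%, 99.99% and 49.4%. The order of the levels was the same in TPM, and 2 members changed places without *Thada*-activated replicate 3. *Cdkn1c* was not tested where 10 counts were asked of every library. Shares from a gene length in the deposited table were not run, as that table gives none. The cause of these changes was not tested. Depth limits *Cdkn1c*, *Ccnd1* and *Cdk6*, and 3 libraries a condition that differ by replicate number limit what the condition test can show.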

Other observations

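In this section, pocket proteins, E2F and DP factors stand for a list that also holds *Lin9*, *Lin37*, *Lin52* and *Lin54*. The interaction term, with 1 library per condition in replicate 3, describes single libraries. It passed edgeR's test with a negative sign for 3 of 5 E-type and A-type cyclin and CDK genes, 11 of 27 E2F targets of S phase, 7 of 17 mitosis markers and 5 of 16 pocket proteins (beside *Rb1*), E2F and DP factors, beside 6.96% of all genes in either direction. In DESeq2, of the genes with an adjusted p, 1 of 6 on the list of E-type and A-type cyclins, their CDKs and CDC25 phosphatases, 3 of 19 E2F targets, 1 of 17 mitosis markers and 0 of 9 pocket proteins, E2F and DP factors passed with that sign, beside 2.16% of all genes. Named examples were *Ccna2* (-0.44), *Mcm5* (-0.36), *Plk1* (-0.48) and *E2f8* (-0.46). *Lin9* (-0.36) and *Lin54* (-0.38), on the same list as *E2f8*, had negative terms too. Single genes of other lists with a negative term were *Cks1b* (-0.52), *Cdkn2d* (-0.35) and *Trp53* (-0.59). Terms were positive for *Prlr* (0.89), *Hnf4a* (0.55) and *Kmt2a* (0.34) among regulators of D-type cyclin and KIP genes, and for *Cdk7* (0.49) and *Pola1* (0.42). By contrast, the terms of *Ccnd2* (0.00), *Cdkn1c* (-0.027), *Cdkn2c* (-0.06) and *Rb1* (-0.09) did not pass.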
